A study of Mus musculus with 8 samples.

Results

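The genes described here are the 4 receptors (Notch1, Notch2, Notch3 and Notch4) and 4 of the canonical ligands (Dll1, Dll4, Jag1 and Jag2) of the Notch pathway. They were chosen by name, 8 of the 28956 genes in the count tables, and were followed through the stromal cells of unfractured and fractured mouse femur, where all 8 were detected.

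Notch receptors are membrane proteins that are switched on by ligands on a touching cell. Ligand binding lets an ADAM protease and then gamma-secretase cut the receptor, and the freed intracellular part joins RBPJ and Mastermind proteins in the nucleus to drive target genes such as those of the Hes and Hey families. In vessels DLL4 is known for arterial identity and the restraint of sprouting and JAG1 for its signal to NOTCH3 on mural cells, and in bone the pathway is known to hold skeletal progenitors back from differentiation.

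Cells were the non-haematopoietic stroma of the femur of female wild-type C57BL/6 mice aged 12 weeks. Control femurs were unfractured. Fracture femurs had been broken by bending at 10 weeks of age under ketamine and xylazine, held with an intramedullary nail, with carprofen as analgesic, and were taken at day 14, when callus cartilage is being replaced by bone, and no sham surgery is named for the controls. All suspensions had been depleted of lineage-positive, CD45+ and CD117+ cells with beads. Each group held 2 cell preparations, read here as the unit of replication (n = 2), with 2 droplet libraries each. Nothing in the labels ties a preparation to single animals, so p-values measure only the spread between preparations, which may be technical.

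The 8 libraries held 56543151 to 89126291 unique molecular identifiers (UMIs, 1 for each captured transcript end) and shared at most 23 barcodes of kept cells in any pair. Median depth was 7711 UMIs per kept cell in Control and 11351 in Fracture. The smallest deposited barcode held 1 UMI in Control and 1929 in Fracture. Of the Control barcodes 1788 had too few genes and 2085 too large a mitochondrial share, against 13 and 3 in Fracture, so 85.57% of Control and 99.64% of Fracture barcodes were kept. Of 45328 cells, 6 stromal classes were named from marker genes after clustering without the Notch genes: 5516 endothelial-like, 1272 smooth muscle-like, 6438 bone mesenchymal stromal cell-like (BMSC-like), 2070 fibroblast-like, 6118 osteoblast-like and 16662 chondrocyte-like cells.

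Several classes kept their markers unevenly. In BMSC-like cells the 6 BMSC markers, Cxcl12 and Lepr among them, summed to 26670 and 28000 CPM in Control and 1933 and 2269 in Fracture (CPM, the usual scaling of a gene's UMIs to a fixed total for each class and preparation), and all 6 fell. These cells held the fibroblast markers at 109 and 39.6 CPM in Control and 782 and 852 in Fracture and the smooth muscle markers at 112 and 82.8 CPM in Control and 1251 and 1024 in Fracture. They held the chondrocyte markers at 613 and 247 CPM in Control and 2406 and 2617 in Fracture, there above the BMSC markers. The osteoblast markers summed to 8800 and 7577 CPM in Control and 9408 and 10270 in Fracture. By these sums the Fracture cells go against the BMSC-like name in part. The 6 smooth muscle markers summed to 38770 and 36260 CPM in Control and 19220 and 20670 in Fracture of smooth muscle-like cells, where 3 of 6 fell and 1 rose. Endothelial-like cells held their own 6 markers at 6979 and 6735 CPM in Control and 5585 and 5563 in Fracture, with 3 of 6 lower, and the 6 chondrocyte markers at 1913 and 849.9 CPM in Control and 12160 and 12370 in Fracture. Smooth muscle-like cells held the chondrocyte markers at 849 and 118 CPM in Control and 8526 and 4943 in Fracture and the erythroid markers at 39.5 and 84.8 CPM in Control and 1568 and 1726 in Fracture. None of these markers was at 0 in either group, and their part in the results below was not tested beyond the values without mixed subclusters and the weighted levels.

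Fracture was set against Control on UMI counts summed per class and preparation with edgeR's quasi-likelihood test. A gene was called at a Benjamini-Hochberg adjusted p under 0.05 over all genes tested in that class, and "rose" and "fell" are used for called genes. Log2 fold changes include a scaling between samples that raised Fracture against Control, relative to plain CPM, by 0.19 in BMSC-like, 0.15 in chondrocyte-like and 0.118 in endothelial-like cells. In dpMSC-like and mpMSC-like cells, described further on, it did so by 0.258 and 0.16. Falls in these cells are thus smaller on this scale than in plain CPM. The scaling lowered Fracture by 0.069 in osteoblast-like cells and by 0.068 in the Vwf and Selp endothelial subcluster described below. Falls there are larger on this scale. Statistics of single members are given where they reached a mean of 5 CPM in either group, with the exceptions of Dll1 in chondrocyte-like cells, which was called at under 1 CPM, and of the Dll1 difference between classes. Counts of members called cover all members tested, that Dll1 call included. In such bulk sums fewer expressing cells and less RNA per cell cannot be told apart. Whether the preparations of the groups overlapped is given below as a description of levels. With so few preparations an exact permutation test of such a separation cannot go below p = 0.33. The share of all genes without overlap is not given, so a lack of overlap is not read as evidence about the members.

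By GENCODE M21 (GRCm38), Notch1 lies at chr2:26457903-26516663 (minus strand), Dll4 at chr2:119325784-119335962 (plus) and Jag1 at chr2:137081456-137116644 (minus). Notch2 lies at chr3:98013527-98150361 (plus), Jag2 at chr12:112907819-112929776 (minus), Dll1 at chr17:15367354-15376872 (minus), Notch3 at chr17:32120820-32166852 (minus) and Notch4 at chr17:34564268-34588503 (plus). Another annotated gene on the same strand overlaps Notch1 (Mir6996), Notch2 (Gm42819 and Gm42820) and Jag2 (Mir6941), and a gene on the opposite strand overlaps Notch1, Notch3, Notch4, Dll1 and Dll4. Reads of overlapping genes may not be told apart. Jag1 has no such neighbour.

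Promoter sequences are shown for 3 members on which the results turn: Notch3, which fell in 3 classes, Jag1, which moved in opposite directions in different cells, and Dll4, which came almost wholly from endothelial-like cells. Each runs from 250 bases before to 50 bases after a RefSeq transcript start (GRCm38.p6), 5′ to 3′ on the strand of the gene. Capitals mark the N-box CACNAG, a motif bound by Hes repressors, found on either strand. The windows are chr17:32166841-32167140 (minus) for Notch3, chr2:137116471-137116770 (minus) for Jag1 and chr2:119325534-119325833 (plus) for Dll4.
Notch3: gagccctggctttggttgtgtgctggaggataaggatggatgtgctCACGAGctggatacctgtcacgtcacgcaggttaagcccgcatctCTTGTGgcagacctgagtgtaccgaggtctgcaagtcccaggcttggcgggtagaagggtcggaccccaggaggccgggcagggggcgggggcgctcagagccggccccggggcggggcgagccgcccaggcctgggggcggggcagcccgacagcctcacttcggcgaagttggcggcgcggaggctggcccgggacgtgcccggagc
Jag1: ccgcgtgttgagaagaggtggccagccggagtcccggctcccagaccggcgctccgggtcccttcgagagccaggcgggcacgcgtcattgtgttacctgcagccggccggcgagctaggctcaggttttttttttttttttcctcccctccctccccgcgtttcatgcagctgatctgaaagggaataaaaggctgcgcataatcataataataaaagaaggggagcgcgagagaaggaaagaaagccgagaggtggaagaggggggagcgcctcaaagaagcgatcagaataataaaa
Dll4: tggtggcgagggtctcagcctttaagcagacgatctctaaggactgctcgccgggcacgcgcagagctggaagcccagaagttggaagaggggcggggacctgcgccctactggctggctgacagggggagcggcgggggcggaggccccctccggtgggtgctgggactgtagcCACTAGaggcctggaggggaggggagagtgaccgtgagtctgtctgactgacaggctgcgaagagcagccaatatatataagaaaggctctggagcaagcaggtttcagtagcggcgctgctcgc
The N-box stood 204 and 159 bases before the start of Notch3 and 75 bases before that of Dll4, and the Jag1 window held none. All 8 members matched a RefSeq promoter, Dll1 with a pair of them, and 5 of these 9 windows held the motif against 42.5% of all 32851 promoter windows. The core motif of RBPJ, TGGGAA on either strand, was in 0 of the 9 windows and in 25.6% of all. With no RBPJ match there is no overlap between the motifs, but a pair of the N-box matches in the Notch1 window overlap each other. A match or its lack describes letters only.

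The members fell into an endothelial set, a mural set and a widespread receptor. Notch1, Notch4, Dll1, Dll4 and Jag2 had their highest level of the 6 classes in endothelial-like cells, Notch3 and Jag1 in smooth muscle-like cells, and Notch2 in BMSC-like cells. These orders describe classes that were clustered from the same cells, so they carry no test.

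**Figure D1:**
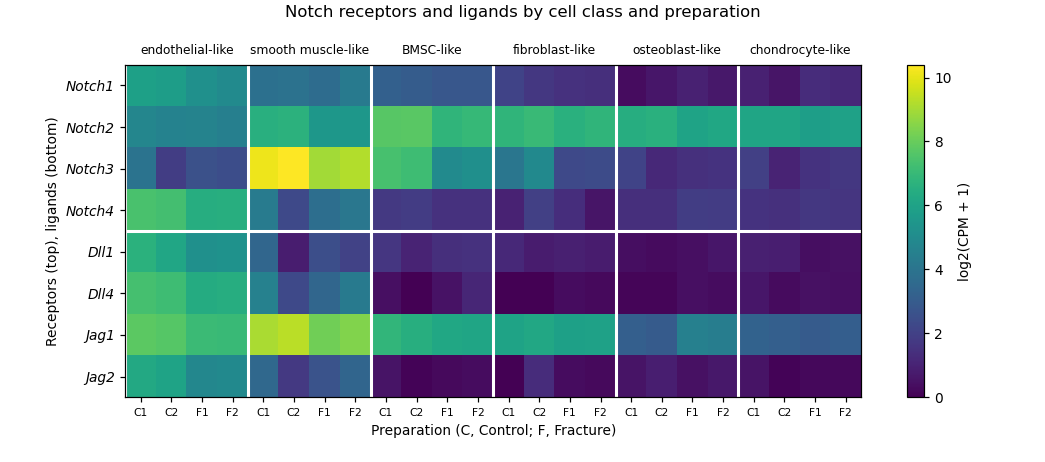
Level of each member (rows) in the 6 classes (blocks of columns), with colour as log2(CPM + 1) and columns for Control (C1, C2) and Fracture (F1, F2) preparations. Notch3 in smooth muscle-like cells was the highest level (1114 and 1351 CPM in Control and 497 and 588 in Fracture), and Dll1, Dll4 and Jag2 stayed under 3 CPM in the remaining 4 classes.

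Blood cells left over from the depletion were a comparison for low levels. Erythroid-like cells held at most 1.01 CPM of Notch1, 8.10 of Notch3 and 5.69 of Jag1 in any preparation. Notch2 stood there at 55.4 and 30.8 CPM in Control and 30.1 and 37.0 in Fracture, and Jag1 at 3.66 and 1.06 CPM in Control and 5.53 and 5.69 in Fracture. Basophil-like cells held Jag1 at 4.69 and 1.61 CPM in Control and 7.17 and 14.3 in Fracture, Notch3 at 7.92 and 0.8595 CPM in Control and 10.0 and 10.4 in Fracture and Notch1 at 5.65 and 7.20 CPM in Control and 8.60 and 6.48 in Fracture. Jag1 was thus higher in Fracture in both, as in osteoblast-like cells, and whether free RNA or expression gave these levels was not tested.

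Among receptors, Notch1 and Notch4, both known from endothelium, fell in endothelial-like cells. Notch1 held 59.3 and 54.9 CPM in Control and 36.7 and 30.6 in Fracture (log2 fold change −0.65 ± 0.12 SE, adjusted p = 0.0209). Notch4 held 168 and 158 CPM in Control and 89.2 and 91.8 in Fracture (−0.73 ± 0.069, adjusted p = 0.00865). The Control preparations were above the Fracture preparations for both. In smooth muscle-like cells the groups overlapped and neither was called. Notch1 held 13.4 and 14.1 CPM in Control and 11.9 and 17.8 in Fracture there (0.13 ± 0.30, adjusted p = 0.775), and Notch4 18.9 and 3.93 CPM in Control and 12.6 and 16.5 in Fracture (0.18 ± 0.62, adjusted p = 0.86), which became a called 1.88, adjusted p = 0.0195 without Control preparation 1. BMSC-like cells held Notch1 at 8.05 and 7.21 CPM in Control and 6.00 and 6.01 in Fracture, without a call (−0.16 ± 0.15, adjusted p = 0.432). In all other classes both stayed under 5 CPM.

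Notch2, the receptor found in every class, fell in the BMSC-like, smooth muscle-like and osteoblast-like classes. BMSC-like cells held 204 and 210.3 CPM in Control and 111 and 123 in Fracture (−0.64 ± 0.089, adjusted p = 0.00579). Smooth muscle-like cells held 94.3 and 101 CPM in Control and 44.4 and 44.5 in Fracture (−1.13 ± 0.14, adjusted p = 0.00579). Osteoblast-like cells held 87.3 and 96.9 CPM in Control and 64.3 and 71.6 in Fracture, just past the threshold (−0.51 ± 0.12, adjusted p = 0.0495), and the osteoblast-like call was lost by a small margin, with the fold change as it was, when the cells with the highest doublet scores were left out (−0.51 ± 0.12, adjusted p = 0.0501). The lower marker sum and depth of Fracture osteoblast-like cells, given below with Jag1, stood beside this fall too. The groups did not overlap in these classes. Nor did they in fibroblast-like cells (112 and 133 CPM in Control and 96.3 and 109 in Fracture) and chondrocyte-like cells (68.7 and 67.8 CPM in Control and 56.0 and 60.3 in Fracture), but neither of these was called (−0.17 ± 0.13, adjusted p = 0.428 and −0.082 ± 0.065, adjusted p = 0.372). Endothelial-like cells held 26.5 and 23.4 CPM in Control and 24.1 and 21.4 in Fracture, with overlapping groups (−0.015 ± 0.12, adjusted p = 0.929). In every preparation this was below the Notch2 level of erythroid-like cells given above.

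The endothelial Notch2 value depended on which cells were counted. Subclusters 5, 8, 9 and 10 of the endothelial-like cells were led by genes of other cells (Col2a1, Bglap, haemoglobins and Clec3a), and the share of subcluster 5 alone was 1.34% and 1.20% in Control and 15.2% and 12.1% in Fracture. Without these subclusters Notch2 fell (−1.07 ± 0.14, adjusted p = 0.0118), and Notch1 was no longer called (−0.47 ± 0.14, adjusted p = 0.0667). With clusters made without integration, too, Notch2 fell (−0.74 on the log2 scale) and Notch1 was not called (−0.48, adjusted p = 0.0592). Notch4 (−0.54 ± 0.077, adjusted p = 0.0137), Dll1 (−0.89 ± 0.21, adjusted p = 0.0347), Dll4 (−0.48 ± 0.086, adjusted p = 0.0197), Jag1 (−0.32 ± 0.067, adjusted p = 0.0285) and Jag2 (−1.004 ± 0.15, adjusted p = 0.015) remained lower and called without the mixed subclusters.

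Notch3, the receptor known from mural cells, fell in smooth muscle-like, BMSC-like and fibroblast-like cells. Smooth muscle-like cells held 1114 and 1351 CPM in Control and 497 and 588 in Fracture (−1.18 ± 0.17, adjusted p = 0.00887). BMSC-like cells held 167 and 143 CPM in Control and 30.1 and 34.9 in Fracture, a level 4.17-fold lower (−2.06 ± 0.13, adjusted p = 0.00147). Fibroblast-like cells held 15.9 and 29.4 CPM in Control and 3.86 and 4.26 in Fracture (−2.30 ± 0.34, adjusted p = 0.0205). All Control preparations were above all Fracture preparations in these 3 classes, and the fibroblast-like call was lost when the cells with the highest doublet scores were left out (−2.03, adjusted p = 0.11) and with clusters made without integration (−0.83, adjusted p = 0.194). In fibroblast-like cells the 6 fibroblast markers summed to 20910 and 22490 CPM in Control and 7702 and 8158 in Fracture (2 fell and 2 rose) and the 6 chondrocyte markers to 3538 and 3165 CPM in Control and 11170 and 10100 in Fracture. Their part in the result was not tested. In endothelial-like cells Control preparation 1 stood apart (14.8 and 2.71 CPM in Control and 4.91 and 4.45 in Fracture), and the difference was not called (−0.80 ± 0.77, adjusted p = 0.461). Without that preparation the endothelial value turned to a called 0.89, adjusted p = 0.0375, and leaving out the other Control preparation instead gave a called −1.54, adjusted p = 2.9e-08. It was also positive, without a call, with called doublets removed (0.17), without the highest doublet scores (0.46) and without integration (0.42), so its direction depended on the setting. Osteoblast-like and chondrocyte-like cells stayed under 5 CPM.

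The make-up of smooth muscle-like cells differed between the groups. Mural subcluster 4, led by blood or cartilage genes with cycling genes among them, made up 5.23% and 3.79% in Control and 40.5% and 36.1% in Fracture. Subcluster 1 made up 23.5% and 14.7% in Control and 7.14% and 6.02% in Fracture. Subcluster 2 made up 21.6% and 22.8% in Control and 3.57% and 4.82% in Fracture, and subcluster 3 19.1% and 17.5% in Control and 6.55% and 8.43% in Fracture. Without the mural subclusters led by skeletal muscle, blood or cartilage, and endothelial genes (2, 4 and 5), Notch3 in smooth muscle-like cells was −0.96 ± 0.18, adjusted p = 0.0181, Notch2 −1.04 ± 0.22, adjusted p = 0.0256 and Jag1 −0.62 ± 0.17, adjusted p = 0.0507. Notch3 and Notch2 thus kept the call and Jag1 lost it. Subcluster 2 was led by skeletal muscle genes, but its markers named it vascular smooth muscle-like, the only mural subcluster so named. This setting therefore left out cells of that name too. Weighting each mural subcluster in Fracture by its share of Control UMIs gave Jag1 425 CPM weighted and 309.5 unweighted, against 568 in Control, Notch2 51.0 CPM weighted and 44.4 unweighted, against 96.1 in Control and Notch3 559 CPM weighted and 543 unweighted, against 1176 in Control. Jag1 thus came nearer to Control, while Notch2 and Notch3 moved little. The same weighting over subclusters of BMSC-like cells gave Notch3 50.6 CPM weighted and 32.7 unweighted, against 156 in Control. These weighted levels are in plain CPM and have no test.

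Among ligands, Dll1 and Dll4, which signal from endothelial cells to each other and to neighbours, fell in endothelial-like cells. Dll1 held 99.97 and 69.6 CPM in Control and 36.6 and 38.6 in Fracture (−1.05 ± 0.19, adjusted p = 0.0211). Dll4 held 159 and 144 CPM in Control and 84.1 and 87.2 in Fracture (−0.70 ± 0.08, adjusted p = 0.0102). Neither overlapped between the groups. In smooth muscle-like cells Dll4 held 22.5 and 3.93 CPM in Control and 9.95 and 18.4 in Fracture (−0.071 ± 0.70, adjusted p = 0.957), and without Control preparation 1 it turned to a called 1.85, adjusted p = 0.0278. Its sign also turned, without a call, under several other settings, to at most 1.03 without the highest doublet scores. The endothelial markers in smooth muscle-like cells summed to 391 and 168 CPM in Control and 460.1 and 508 in Fracture, lowest in the same preparation as Dll4. Dll1 in those cells held 9.73 and 0.785 CPM in Control and 4.64 and 3.18 in Fracture, on 48 UMIs, and did not pass the filter on low counts. Chondrocyte-like cells gave a call for Dll1 (adjusted p = 0.0347) at 0.900 and 0.812 CPM in Control and 0.304 and 0.384 in Fracture, which was lost without the highest doublet scores (−1.09 ± 0.30, adjusted p = 0.0506).

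Jag2 followed the Delta ligands. It held 77.6 and 63.8 CPM in Control and 27.3 and 29.9 in Fracture of endothelial-like cells (−1.19 ± 0.13, adjusted p = 0.00979), without overlap. In smooth muscle-like cells it held 10.3 and 2.36 CPM in Control and 5.30 and 9.53 in Fracture, with overlap (0.013 ± 0.69, adjusted p = 0.992).

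Jag1, the ligand found in most classes, fell in vessel cells and rose in osteoblast-like cells. Smooth muscle-like cells held 541 and 643 CPM in Control and 279 and 339 in Fracture (−0.93 ± 0.17, adjusted p = 0.0154). Endothelial-like cells held 217 and 199 CPM in Control and 135 and 133 in Fracture (−0.51 ± 0.07, adjusted p = 0.0131). Osteoblast-like cells held 7.77 and 6.997 CPM in Control and 22.3 and 20.1 in Fracture, a 2.73-fold rise (1.45 ± 0.10, adjusted p = 0.00463). The groups were apart in all 3. Beside the osteoblast-like rise, the 6 osteoblast markers of these cells summed to 106300 and 123300 CPM in Control and 45310 and 58500 in Fracture (1 fell and 2 rose), and the median depth of the cells was 19071 UMIs in Control and 11533 in Fracture. Their part in the result was not tested. In BMSC-like cells Jag1 held 114 and 90.5 CPM in Control and 73.3 and 67.7 in Fracture (−0.34 ± 0.13, adjusted p = 0.079), in fibroblast-like cells 63.6 and 75.0 CPM in Control and 59.7 and 60.7 in Fracture (−0.12 ± 0.12, adjusted p = 0.527) and in chondrocyte-like cells 8.56 and 7.96 CPM in Control and 7.02 and 7.51 in Fracture (−0.038 ± 0.089, adjusted p = 0.766). None of these was called. In each the Control preparations were the higher in plain CPM, before the scaling that raised Fracture, and this order is not read as a fall.

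In endothelial-like cells 6 of 8 members tested were called, all lower, against 33.8% of all genes. The count was 3 of 7 in smooth muscle-like cells against 26.7% of all genes, 2 of 6 in BMSC-like cells against 51.3%, 1 of 4 in fibroblast-like cells against 16.3%, 2 of 6 in osteoblast-like cells against 16.6% and 1 of 7 in chondrocyte-like cells against 37.2%. The median log2 change of members was −0.72 in endothelial-like cells, where that of all genes was 0.006. In BMSC-like and chondrocyte-like cells the share of members called was below that of all genes.

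With 1 Fracture preparation left out, a single sample is set against a pair and its spread is assumed to equal that of Control. Without Fracture preparation 1, 1 of the 15 calls over all classes remained, and without Fracture preparation 2, 2 remained. Notch3 in BMSC-like cells was called both times (adjusted p at most 0.0265). All 6 endothelial calls were lost without either Fracture preparation, while the log2 change of Jag2, for one, stayed between −1.32 and −1.04. With either Fracture preparation left out, 0 genes of the whole endothelial-like table were called.

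**Figure D2:**
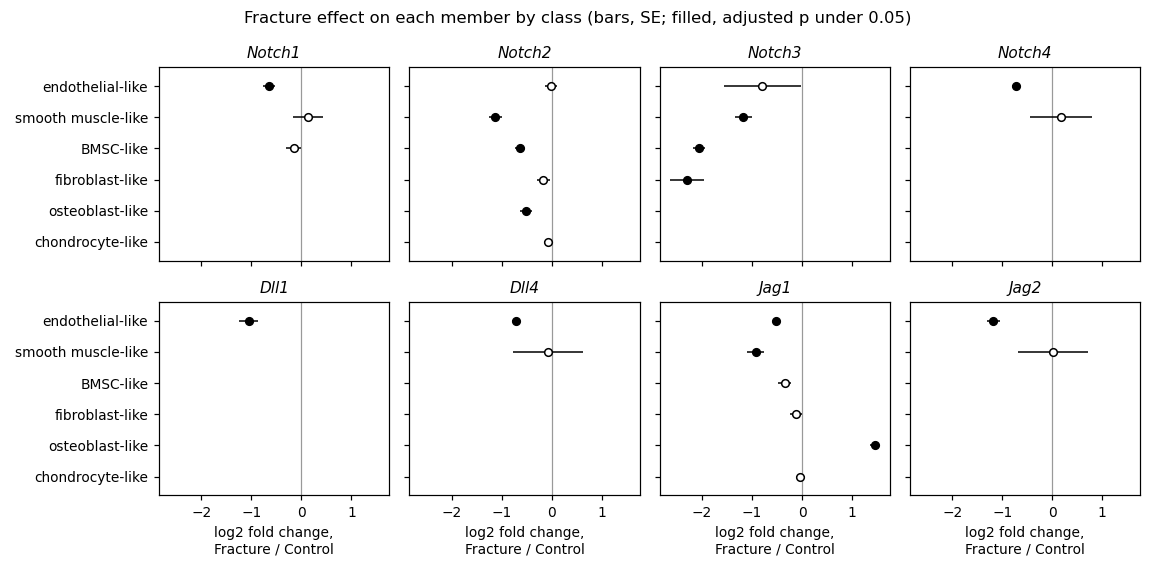
Log2 fold change of Fracture over Control for each member in the classes where it reached a mean of 5 CPM in either group and was tested, with its SE as the bar, and filled points for calls. Jag1 in osteoblast-like cells (1.45 ± 0.10, adjusted p = 0.00463) is the only filled point right of 0 among the classes.

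Endothelial-like cells were clustered again. Subclusters named from markers were arterial-like (1040 cells), sinusoidal-like (934 cells) and metaphyseal-like (490 cells). Arterial-like cells pooled subclusters 2 and 4. Subcluster 2 had 271 and 164 cells in Control and 88 and 114 in Fracture. Subcluster 4 had 195 and 133 cells in Control and 30 and 45 in Fracture. The part of this mix in the arterial-like values was not tested. Another pair of subclusters with at least 20 cells in every preparation stayed unnamed and is called by its leading genes, the Ramp3 and Ednrb cells (1581 cells) and the Vwf and Selp cells (391 cells). Kcne3 and Piezo2, both on the metaphyseal marker list, also led the Ramp3 and Ednrb cells. Their metaphyseal marker score was 0.99, behind another list at 1.08, and the metaphyseal-like cells scored 1.17. The metaphyseal-like cells are therefore not read as all metaphyseal endothelial cells. Subcluster 7, led by cycling genes such as Top2a and Cdk1, had 18 cells in Control preparation 1 and was not tested. It made up 1.10% and 2.48% of endothelial-like cells in Control and 11.4% and 11.6% in Fracture. As recovered after depletion and dissociation, arterial-like cells among all endothelial-like cells were 28.4% and 23.7% in Control and 9.73% and 11.3% in Fracture. Their share of the class's UMIs was 61.4% and 64.9% in Control and 34.9% and 35.3% in Fracture for Jag1 and 55.1% and 51.6% in Control and 29.1% and 32.4% in Fracture for Dll4. These shares were lower in Fracture beside the lower number of arterial-like cells.

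Dll1 fell in 3 of the 5 subclusters. Arterial-like cells held 109 and 81.0 CPM in Control and 34.0 and 31.7 in Fracture (−1.46 ± 0.18, adjusted p = 0.00954). Metaphyseal-like cells held 56.4 and 76.7 CPM in Control and 12.6 and 15.5 in Fracture (−2.14 ± 0.32, adjusted p = 0.0102). The Vwf and Selp cells, with the highest Control level of Dll1, held 274 and 224 CPM in Control and 65.4 and 51.5 in Fracture (−2.18 ± 0.21, adjusted p = 0.000846). That last call was kept with any 1 preparation left out (adjusted p at most 0.00543 over all alternatives). Markers moved in these subclusters as well. In the Vwf and Selp cells the smooth muscle markers summed to 1896 and 1051 CPM in Control and 724 and 594 in Fracture, the BMSC markers to 1296 and 993 CPM in Control and 466 and 517 in Fracture and the erythroid markers to 35.3 and 77.3 CPM in Control and 1020 and 87.8 in Fracture. Of the 6 arterial markers 4 fell and 1 rose in arterial-like cells (median log2 change −0.67). In metaphyseal-like cells 3 of 6 own markers rose (median 1.03), the BMSC markers summed to 2741 and 2875 CPM in Control and 916 and 1077 in Fracture and the chondrocyte markers to 400.2 and 93.5 CPM in Control and 1008 and 1017 in Fracture. Their part in the falls of Dll1, and of Jag2 and Notch2 described next, was not tested. Sinusoidal-like cells held 62.2 and 46.4 CPM in Control and 58.6 and 40.5 in Fracture, with overlap (−0.087 ± 0.23, adjusted p = 0.826), and the Ramp3 and Ednrb cells 101 and 71.6 CPM in Control and 54.0 and 70.0 in Fracture (−0.38 ± 0.21, adjusted p = 0.246). Whether the effect differs between subclusters was not tested.

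Jag2 fell in arterial-like (219 and 178 to 119 and 124 CPM, −0.63 ± 0.12, adjusted p = 0.0283), metaphyseal-like (74.1 and 79.1 to 32.8 and 32.6 CPM, −1.17 ± 0.22, adjusted p = 0.0202) and Ramp3 and Ednrb cells (44.4 and 37.6 to 23.2 and 25.1 CPM, −0.67 ± 0.17, adjusted p = 0.0458). By DESeq2 the metaphyseal-like call (−1.17, adjusted p = 0.0689) and that in Ramp3 and Ednrb cells (−0.67, adjusted p = 0.163) were lost. Dll4 fell in sinusoidal-like cells (75.9 and 69.4 to 46.3 and 46.6 CPM, −0.60 ± 0.14, adjusted p = 0.0339), a call that DESeq2 did not give (−0.60, adjusted p = 0.098). It was highest in arterial-like cells, at 353 and 305 CPM in Control and 245 and 251 in Fracture, and was not called there (−0.33 ± 0.10, adjusted p = 0.0897). In metaphyseal-like cells Dll4 held 116 and 144 CPM in Control and 147 and 147 in Fracture, also without a call (0.23 ± 0.17, adjusted p = 0.395). The Dll4 groups were apart in all of these, lower in Fracture in the first pair and higher in metaphyseal-like cells.

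Jag1 rose in the Ramp3 and Ednrb cells although it fell in the class as a whole. These cells held 71.7 and 60.9 CPM in Control and 128 and 115 in Fracture (0.96 ± 0.12, adjusted p = 0.00957). Beside this rise the chondrocyte markers in these cells summed to 343 and 95.7 CPM in Control and 1188 and 1407 in Fracture and the BMSC markers to 800.2 and 487 CPM in Control and 281 and 258 in Fracture. Their part in the result was not tested. Arterial-like cells, with the highest level, held 536 and 531 CPM in Control and 472 and 418 in Fracture (−0.19 ± 0.10, adjusted p = 0.24), and sinusoidal-like cells 161 and 141 CPM in Control and 136 and 126 in Fracture (−0.16 ± 0.11, adjusted p = 0.386). The Vwf and Selp cells held 115.5 and 115.9 CPM in Control and 82.2 and 77.3 in Fracture (−0.59 ± 0.21, adjusted p = 0.129). In metaphyseal-like cells Jag1 held 107.5 and 76.7 CPM in Control and 102 and 131 in Fracture, with overlap (0.385 ± 0.23, adjusted p = 0.296). None of the 5 subclusters gave a called fall of Jag1. Weighting the Fracture level of each of 10 endothelial subclusters by its share of Control UMIs gave Jag1 197 CPM against 208 in Control and an unweighted 134 in Fracture. The same weighting gave Dll1 45.0 CPM against 85.6 in Control and an unweighted 37.7 in Fracture, and Jag2 43.8 CPM against 71.1 in Control and an unweighted 28.7 in Fracture. For the others it gave Dll4 117 CPM against 152 in Control and an unweighted 85.8 in Fracture, Notch1 42.4 CPM against 57.2 in Control and an unweighted 33.3 in Fracture and Notch4 118 CPM against 163 in Control and an unweighted 90.6 in Fracture. Notch2 moved the other way, to 12.4 CPM against 25.04 in Control and an unweighted 22.6 in Fracture. Weighted Jag1 thus came close to Control, Notch2 moved away from it, and the rest of these stayed below it. These weighted levels have no test.

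Of the receptors, Notch2 fell in sinusoidal-like cells (43.8 and 36.3 to 11.3 and 16.8 CPM, −1.43 ± 0.26, adjusted p = 0.0157) and, on 36 UMIs in all, in metaphyseal-like cells (21.2 and 26.4 to 8.84 and 5.15 CPM, −1.73 ± 0.43, adjusted p = 0.0441). Erythroid-like cells held Notch2 at 55.4 and 30.8 CPM in Control and 30.1 and 37.0 in Fracture. That was above metaphyseal-like cells in every preparation and above sinusoidal-like cells in all but Control preparation 2. Notch4 fell in the Ramp3 and Ednrb cells (200.4 and 183 to 112 and 129 CPM, −0.58 ± 0.11, adjusted p = 0.0264) and held 297 and 277 CPM in Control and 209.6 and 215 in Fracture of arterial-like cells without a call (−0.36 ± 0.094, adjusted p = 0.059). Notch1 was called in none of the 5. The counts were 2 of 7 members in arterial-like cells against 12.8% of all genes, 2 of 6 in sinusoidal-like cells against 16.6%, 3 of 7 in metaphyseal-like cells against 13.5%, 3 of 7 in Ramp3 and Ednrb cells against 19% and 1 of 7 in Vwf and Selp cells against 7.32%. Apart from Dll1 in the Vwf and Selp cells, each of these calls was lost without Fracture preparation 1 or without Fracture preparation 2. The metaphyseal-like Notch2 call was also lost without either Control preparation, with cells of at least 2000 UMIs (−1.56, adjusted p = 0.0769) and by DESeq2 (−1.74, adjusted p = 0.245). Beside the falls of Notch2 and Dll4 in sinusoidal-like cells, 5 of the 6 sinusoidal markers fell there (median log2 change −1.32), and their part in the result was not tested. In arterial-like cells the chondrocyte markers summed to 320.2 and 100.3 CPM in Control and 1221 and 1052 in Fracture.

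**Figure D3:**
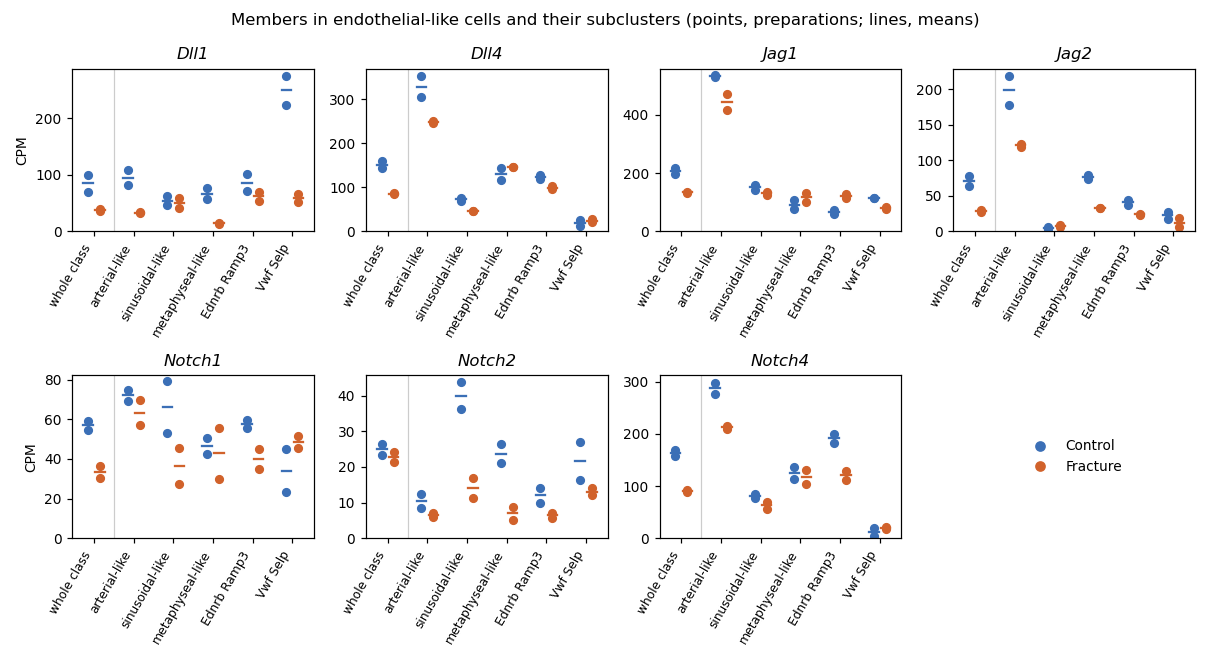
Level in CPM of the members other than Notch3 in the endothelial-like class and in 5 of its subclusters, with 1 point per preparation and lines at the group means. Jag1 in the Ramp3 and Ednrb cells was higher in Fracture (71.7 and 60.9 to 128 and 115 CPM), and Dll1 in the Vwf and Selp cells was lower (274 and 224 to 65.4 and 51.5 CPM).

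Pericyte-like cells (380 cells), the mural cells of small vessels, had the highest Notch3 of the classes and of the subclasses tested. They held 1753 and 1805 CPM in Control and 715 and 932 in Fracture, and Notch3 fell (−1.06 ± 0.17, adjusted p = 0.00922). Jag1 fell from 671 and 618 to 328 and 375 CPM (−0.82 ± 0.15, adjusted p = 0.0156), and Notch2 held 76.7 and 109 CPM in Control and 40.9 and 45.2 in Fracture without a call (−1.02 ± 0.28, adjusted p = 0.0522). Beside these falls the smooth muscle markers in pericyte-like cells summed to 38650 and 34250 CPM in Control and 24290 and 25090 in Fracture and the chondrocyte markers to 349 and 134 CPM in Control and 1859 and 1219 in Fracture. Their part in the result was not tested. Of the members tested 2 of 3 were called against 13% of all genes. Without Fracture preparation 1 both calls were lost, and without Fracture preparation 2 that of Jag1.

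Clustering cells of the BMSC-like, fibroblast-like and osteoblast-like classes again gave diaphyseal (dpMSC-like, 3672 cells) and metaphyseal (mpMSC-like, 2530 cells) stromal cells. A finer clustering of the same cells gave 208 septoclast-like cells, the mononuclear cells known to resorb cartilage at its border with bone. These can therefore also be counted among the other subclasses, and Mmp9 led both the septoclast-like and the mpMSC-like subcluster. Notch3 in dpMSC-like cells held 237 and 177 CPM in Control and 28.0 and 40.7 in Fracture (−2.33 ± 0.24, adjusted p = 0.00156), and in mpMSC-like cells 78.3 and 68.4 CPM in Control and 29.2 and 29.9 in Fracture (−1.15 ± 0.11, adjusted p = 0.00319). Control levels were higher in dpMSC-like cells, and Fracture levels of both subclasses lay between 28.0 and 40.7 CPM. Notch2 fell in dpMSC-like (209.8 and 215 to 106 and 115 CPM, −0.68 ± 0.092, adjusted p = 0.00348) and mpMSC-like cells (202 and 203 to 109.7 and 128 CPM, −0.61 ± 0.10, adjusted p = 0.0128). Notch1 in dpMSC-like cells held 7.69 and 7.33 CPM in Control and 3.77 and 3.99 in Fracture, without overlap and just short of the threshold (−0.69 ± 0.23, adjusted p = 0.0542). The counts were 2 of 5 members in dpMSC-like cells against 51.7% of all genes and 2 of 6 in mpMSC-like cells against 29.8%, so in dpMSC-like cells members were not called more often than genes at large. These falls stood beside marker changes. All 6 dpMSC markers fell in dpMSC-like cells (median log2 change −3.50), where the BMSC markers summed to 43130 and 38140 CPM in Control and 3060 and 4076 in Fracture. The smooth muscle markers summed to 123 and 104 CPM in Control and 2419 and 2083 in Fracture and the fibroblast markers to 31.1 and 13.9 CPM in Control and 1341 and 1485 in Fracture in dpMSC-like cells, of which there were 1710 and 1229 in Control and 348 and 385 in Fracture. By these sums the Fracture cells go against the dpMSC-like name in part. In mpMSC-like cells 5 of 6 own markers fell (median −1.13), the BMSC markers summed to 6396 and 7126 CPM in Control and 1187 and 1216 in Fracture and the chondrocyte markers to 884 and 488 CPM in Control and 2698 and 2234 in Fracture. The osteoblast markers summed there to 13950 and 12340 CPM in Control and 16880 and 18560 in Fracture, above the BMSC markers in every preparation. The finer clustering named no subcluster mpMSC-like. By these values the cells of both groups go against the mpMSC-like name in part. Their part in these results was not tested. The dpMSC-like calls of Notch3 and Notch2 were kept with any preparation left out. Both mpMSC-like calls were lost without Fracture preparation 1 (adjusted p = 0.088 for Notch2 and 0.0504 for Notch3).

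Septoclast-like cells held Notch2, Notch3, Jag1 and, on 39 UMIs in all, Notch1. Notch1 stood at 25.8 and 13.8 CPM in Control and 18.6 and 18.2 in Fracture and did not pass the filter on low counts. Notch2 stood at 167 and 259 CPM in Control and 132 and 104 in Fracture (−0.80 ± 0.26, adjusted p = 0.135), Notch3 at 75.4 and 110.1 CPM in Control and 49.5 and 57.9 in Fracture (−0.71 ± 0.27, adjusted p = 0.195) and Jag1 at 142 and 138 CPM in Control and 138 and 92.7 in Fracture (−0.25 ± 0.24, adjusted p = 0.61). The Notch2 and Notch3 levels of the groups did not overlap, those of Jag1 did, and 0 of 3 members tested were called by edgeR against 4.83% of all genes, with unadjusted p-values of 0.0164, 0.033 and 0.328. These values rest on 56 and 32 Control and 56 and 64 Fracture cells.

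Whether the fracture effect differed between the 6 classes was tested by class-by-group terms in one edgeR fit with preparation as a block. Jointly, it differed for 6 of 8 members, where 61.6% of all genes were called. Adjusted p was 9.89e-08 for Jag1, 6.95e-05 for Notch2, 0.000427 for Notch1, 0.00646 for Notch4, 0.0122 for Notch3 and 0.0193 for Dll1. It was 0.0526 for Dll4 and 0.346 for Jag2, which were not called. The endothelial-like minus the BMSC-like effect was called for 3 of 8 members against 27.3% of all genes. It was −1.36 ± 0.38 for Dll1 (adjusted p = 0.0138) and 0.63 ± 0.13 for Notch2 (adjusted p = 0.00188). Dll4 was the third, but it had 5 and 0 UMIs in the Control and 4 and 13 in the Fracture preparations of BMSC-like cells and did not pass the filter on low counts there, so no BMSC-like effect was available to set against the endothelial-like one. The Notch2 difference turned to a called −0.44, adjusted p = 0.0152 without the mixed subclusters, and was not called without the highest doublet scores (0.29, adjusted p = 0.139) or without integration (−0.08, adjusted p = 0.727). The Dll1 difference was not called by DESeq2, although its size stayed between −1.55 and −1.21 over the alternatives with all preparations. Without Fracture preparation 1 the joint test called 3 members and this difference 0, and without Fracture preparation 2 they called 3 and 1.

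The supply of each transcript was also split over the classes. Of Dll4 UMIs, endothelial-like cells supplied 93.2% and 99.2% in Control and 94.0% and 93.4% in Fracture. Of Jag2 they supplied 90.6% and 95.6% in Control and 90.3% and 89.1% in Fracture, and of Dll1 89.4% and 95.0% in Control and 86.7% and 86.4% in Fracture. These 3 ligands thus came mostly from endothelial-like cells in both groups. Of Jag1, endothelial-like cells supplied 31.0% and 41.2% in Control and 36.4% and 37.2% in Fracture, and smooth muscle-like cells 30.7% and 20.9% in Control and 10.1% and 10.9% in Fracture. Osteoblast-like cells supplied 3.81% and 3.65% in Control and 9.88% and 8.84% in Fracture. Chondrocyte-like cells supplied 4.05% and 2.50% in Control and 15.0% and 15.5% in Fracture, fibroblast-like cells 3.09% and 2.61% in Control and 11.2% and 12.2% in Fracture and BMSC-like cells 27.4% and 29.1% in Control and 17.4% and 15.4% in Fracture. Jag1 UMIs therefore came from several classes, and the parts of chondrocyte-like, fibroblast-like and osteoblast-like cells were larger in Fracture, that of chondrocyte-like cells by the most. At 7.02 and 7.51 CPM in Fracture, Jag1 in chondrocyte-like cells lay near its level in erythroid-like (5.53 and 5.69) and basophil-like cells (7.17 and 14.3). In Control it held 8.56 and 7.96 CPM, against 3.66 and 1.06 in erythroid-like and 4.69 and 1.61 in basophil-like cells. Whether free RNA or expression gave the chondrocyte-like part was not tested. The osteoblast-like share of all UMIs of the 6 classes was 33.8% and 36.4% in Control and 13.4% and 13.6% in Fracture and the fibroblast-like share 3.34% and 2.42% in Control and 5.66% and 6.18% in Fracture.

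Of Notch2, BMSC-like cells supplied 35.4% and 44.5% in Control and 13.1% and 13.1% in Fracture, osteoblast-like cells 30.8% and 33.2% in Control and 14.2% and 14.8% in Fracture and chondrocyte-like cells 23.4% and 14.0% in Control and 59.7% and 58.4% in Fracture. The chondrocyte-like share of all UMIs of the 6 classes was 32.6% and 21.9% in Control and 64.6% and 63.7% in Fracture, so the Notch2 share moved beside it. The BMSC-like share of all UMIs was 16.6% and 22.5% in Control and 7.16% and 6.99% in Fracture. Fracture minus Control in the BMSC-like share of Notch2 was −26.83 percentage points. Over 6 other settings with all preparations it ran from −34.4 to −5.56. Of Notch3, smooth muscle-like cells supplied 57.8% and 47.5% in Control and 56.5% and 55.0% in Fracture, with overlapping groups, and BMSC-like cells 36.9% and 49.7% in Control and 22.3% and 23.1% in Fracture. Chondrocyte-like cells, at under 5 CPM, supplied 1.25% and 0.359% in Control and 12.4% and 13.4% in Fracture of Notch3. In an exact permutation test, two-sided, 2 preparations against 2 cannot go below p = 0.33, so no share can pass the threshold. Recovered cell numbers, which depletion and dissociation help to set, enter these shares.

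**Figure D4:**
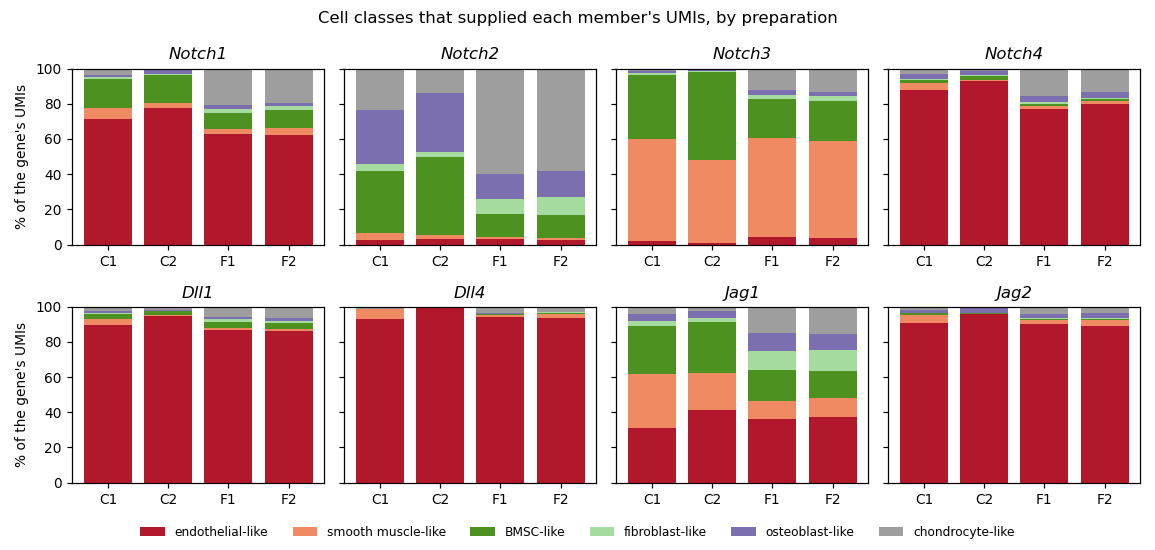
Percent of each member's UMIs supplied by each of the 6 classes, 1 bar per preparation. Endothelial-like cells made up most of Dll1, Dll4 and Jag2 in every preparation, and chondrocyte-like cells supplied 59.7% and 58.4% of Notch2 in Fracture.

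After each cell was thinned to 1000 UMIs, smooth muscle-like cells with a Notch3 UMI were 64.3% and 73.0% in Control and 41.1% and 45.8% in Fracture (unthinned 96.4%, 97.6%, 94.6% and 95.2%). In erythroid-like cells it was found in at most 2.48% of unthinned cells of any preparation. Endothelial-like cells with a Dll4 UMI were 15.5% and 13.3% in Control and 8.57% and 7.74% in Fracture (unthinned 39.0%, 43.6%, 38.0% and 39.0%), and Dll4 was found in at most 0.957% of unthinned erythroid-like cells. Both shares were thus above those of erythroid-like cells, and with equal depth lower in both Fracture preparations than in Control. Endothelial-like cells with a receptor and a ligand UMI together were 10.9% and 10.3% in Control and 3.96% and 3.69% in Fracture (unthinned 48.7%, 51.4%, 52.9% and 55.4%). For smooth muscle-like cells these shares were 30.9% and 33.7% in Control and 8.93% and 12.7% in Fracture (unthinned 78.8%, 87.7%, 75.6% and 83.7%). The unthinned share with both in endothelial-like cells was higher in Fracture, where cells were deeper, while the unthinned share with Dll4 was not. Median depths in Control and Fracture were 4558.5 and 7870.5 UMIs for endothelial-like, 4758 and 7687.5 for smooth muscle-like and 6261 and 7272 for erythroid-like cells. Thinning left out 92 Control endothelial-like, 15 Control smooth muscle-like and 25 Control erythroid-like cells and no Fracture cell of these classes.

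The 7 lists of other pathway genes held 50 genes. In endothelial-like cells 20 of 45 tested were called (16 lower, 4 higher), in smooth muscle-like cells 11 of 39 (10 lower, 1 higher), in BMSC-like cells 26 of 44 (20 lower, 6 higher), in fibroblast-like cells 3 of 39, in osteoblast-like cells 3 of 38 and in chondrocyte-like cells 24 of 49 (12 lower, 12 higher). As shares these are 44.4%, 28.2%, 59.1%, 7.69%, 7.89% and 49%, beside the shares of all genes given above. The median log2 change of the listed genes was −0.29 in endothelial-like, −0.34 in smooth muscle-like and −0.25 in BMSC-like cells.

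Of the target list, 3 of 5 tested genes fell in smooth muscle-like cells, where 26.7% of all genes were called. Hey2, a repressor known from arterial and muscle development, held 105 and 80.1 CPM in Control and 19.2 and 15.9 in Fracture (−2.39 ± 0.22, adjusted p = 0.00377). Hes1, a repressor and common readout of the pathway, held 319 and 361 CPM in Control and 169.7 and 222 in Fracture (−0.79 ± 0.17, adjusted p = 0.0273), and Nrarp, a feedback inhibitor, 96.8 and 115 CPM in Control and 65.0 and 68.6 in Fracture (−0.65 ± 0.15, adjusted p = 0.0298). Heyl did not follow them (129 and 175 CPM in Control and 141 and 169.6 in Fracture, 0.046 ± 0.20, adjusted p = 0.887). In BMSC-like cells 2 of 5 fell, a smaller share than the 51.3% of all genes called, Heyl from 121 and 147 to 32.3 and 31.9 CPM (−1.87 ± 0.12, adjusted p = 0.00157) and Hes1 from 144 and 161 to 102 and 103 CPM (−0.39 ± 0.089, adjusted p = 0.0219). The smooth muscle-like falls stood beside the changed subcluster make-up and lower marker sum of that class given above. The BMSC-like falls stood beside the marker changes of BMSC-like cells. Their part in these falls of targets was not tested.

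Hes1 rose in osteoblast-like cells, where it held 42.8 and 59.3 CPM in Control and 155 and 175 in Fracture (1.62 ± 0.20, adjusted p = 0.0141), and in chondrocyte-like cells, where it held 53.5 and 53.5 CPM in Control and 102 and 107 in Fracture (1.12 ± 0.056, adjusted p = 0.00154). The osteoblast-like rise of Hes1 stood beside the same lower marker sum and depth as that of Jag1, and in chondrocyte-like cells the 6 osteoblast markers summed to 6932 and 8459 CPM in Control and 12800 and 13620 in Fracture. Their part in these rises was not tested. Hes1 was the single target called in each, of 4 and 6 tested, against 16.6% and 37.2% of all genes. In endothelial-like cells Hes1 held 226 and 221 CPM in Control and 213 and 227 in Fracture (0.10 ± 0.07, adjusted p = 0.335) and Hey1, an arterial target, 76.9 and 46.2 CPM in Control and 27.7 and 31.1 in Fracture (−0.95 ± 0.26, adjusted p = 0.0546), neither called, and 1 of 5 was called, Hey2, at levels under 5 CPM, against 33.8% of all genes. Hes1 in BMSC-like cells and the targets named for endothelial-like cells and subclasses, together with Heyl in smooth muscle-like cells, were singled out after their values were seen. In subclasses, Nrarp rose in sinusoidal-like cells (52.7 and 43.2 to 94.4 and 93.2 CPM, 1.02 ± 0.14, adjusted p = 0.0066) and Heyl fell in dpMSC-like cells (178 and 191 to 18.0 and 15.7 CPM, −3.19 ± 0.12, adjusted p = 0.000276). In septoclast-like cells Hey1 held 177 and 93.6 CPM in Control and 92.8 and 124 in Fracture (−0.30 ± 0.30, adjusted p = 0.626) and Heyl 155 and 234 CPM in Control and 103 and 132 in Fracture (−0.66 ± 0.26, adjusted p = 0.199), also without a call.

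**Figure D5:**
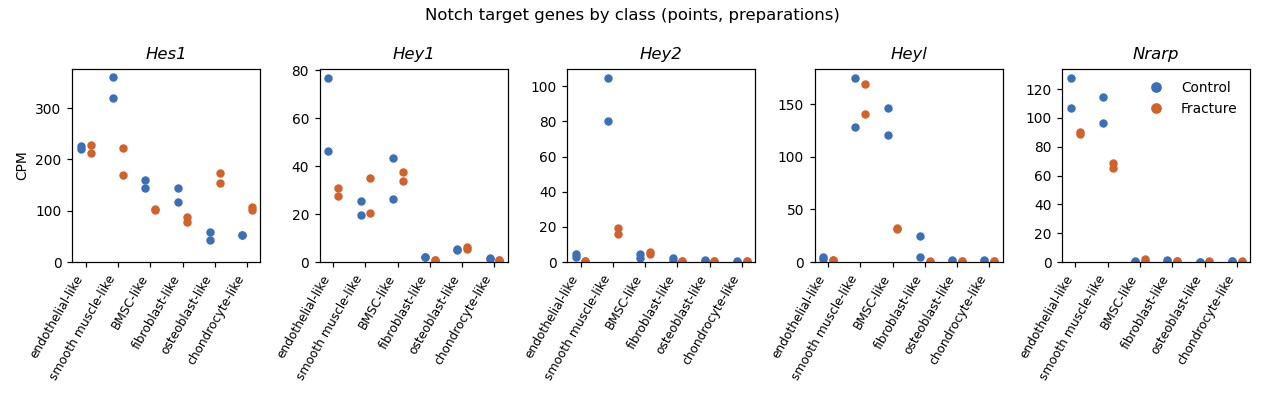
Level in CPM of Notch target genes in the 6 classes, 1 point per preparation. Hes1 was higher in Fracture in osteoblast-like cells (42.8 and 59.3 to 155 and 175 CPM) and lower in smooth muscle-like cells (319 and 361 to 169.7 and 222 CPM).

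Of the genes that act on receptors and ligands, Lfng, a Fringe enzyme that adds sugars to the receptor and alters its choice of ligand, fell in endothelial-like (64.6 and 60.4 to 29.2 and 28.8 CPM, −0.99 ± 0.083, adjusted p = 0.00831) and BMSC-like cells (38.7 and 34.6 to 8.03 and 8.35 CPM, −1.97 ± 0.11, adjusted p = 0.00136) and rose in chondrocyte-like cells (1.17 and 0.812 to 1.66 and 1.74 CPM, 0.86 ± 0.22, adjusted p = 0.0441). Psen2, a catalytic subunit of gamma-secretase, fell in endothelial-like cells (66.6 and 67.3 to 30.6 and 32.8 CPM, −0.96 ± 0.086, adjusted p = 0.00854). Mib1, the ubiquitin ligase that drives ligand uptake in the sending cell, fell in endothelial-like (113 and 112 to 77.6 and 76.7 CPM, −0.42 ± 0.06, adjusted p = 0.0142) and smooth muscle-like cells (90.7 and 103 to 59.0 and 35.6 CPM, −1.02 ± 0.26, adjusted p = 0.0389). Numbl, a relative of the receptor antagonist Numb, rose in endothelial-like (11.1 and 9.35 to 18.7 and 16.3 CPM, 0.89 ± 0.14, adjusted p = 0.0176), BMSC-like (27.9 and 26.4 to 40.6 and 37.6 CPM, 0.72 ± 0.092, adjusted p = 0.00487), fibroblast-like (22.4 and 25 to 40.5 and 42.0 CPM, 0.89 ± 0.12, adjusted p = 0.018) and chondrocyte-like cells (19.8 and 18.9 to 27.9 and 28.1 CPM, 0.68 ± 0.061, adjusted p = 0.00427). Numb fell in endothelial-like (111 and 104 to 57.9 and 59.7 CPM, −0.75 ± 0.071, adjusted p = 0.00863) and BMSC-like cells (24.4 and 27.8 to 13.2 and 13.7 CPM, −0.76 ± 0.12, adjusted p = 0.00795).

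The largest rises were of atypical ligands. Dlk1, which lacks the domain that other Delta ligands use to activate the receptor, held 3.34 and 4.71 CPM in Control and 165 and 159 in Fracture of smooth muscle-like cells (5.41 ± 0.20, adjusted p = 0.002). Nov, a matricellular protein, held 0.196 and 0.159 CPM in Control and 47.7 and 28.1 in Fracture of BMSC-like cells (adjusted p = 0.00125), on 3 and 2 UMIs in the Control preparations. Dlk1 also rose in BMSC-like (0.131 and 0 to 1.53 and 1.44 CPM, adjusted p = 0.00856) and chondrocyte-like cells (0.533 and 0.244 to 1.398 and 1.08 CPM, adjusted p = 0.0311), and Nov in chondrocyte-like cells (1.63 and 0.569 to 3.77 and 3.74 CPM, adjusted p = 0.0273). These values of Dlk1 and Nov, with those of Lfng in chondrocyte-like and Numb in BMSC-like cells, were added after they were seen. Nov was among the leading genes of a fibroblast-like subcluster of the stromal cells, and the BMSC-like rise stood beside the higher fibroblast and smooth muscle marker sums of BMSC-like cells given above. The smooth muscle-like rise of Dlk1 stood beside the larger share of mural subcluster 4 in Fracture given above. In smooth muscle-like cells the fibroblast markers summed to 747 and 728 CPM in Control and 1831 and 2397 in Fracture. Their part in these results was not tested.

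For each member, the genes with the most similar level over the 24 class and preparation sums were taken by Pearson r of log2(CPM + 1) among 10936 genes with a mean of at least 5 CPM. These are a description, since the sums share libraries and classes. For Dll4 they were Ptprb (0.99), Sox17 (0.99) and Icam2 (0.99), for Jag2 Ppp1r16b (0.99), Rbp7 (0.99) and Notch4 (0.98), for Notch4 Slc9a3r2 (0.99), Ppp1r16b (0.99) and Icam2 (0.99) and for Dll1 Shank3 (0.98), Map3k11 (0.98) and Tm6sf1 (0.98). For Notch1 they were Nbea (0.98), Cmpk2 (0.97) and Dgkz (0.97), for Notch3 Tusc5 (0.98) and 4933431K23Rik (0.98), for Jag1 Esyt1 (0.97) and Armc1 (0.96) and for Notch2 Meis1 (0.90), Ddr2 (0.88) and Cpq (0.88). Notch2 thus had the least close neighbours of the 8.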

How the data were processed

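Droplet 3′ single-cell libraries of femoral stromal cells were deposited by the authors as tables of UMI counts per gene and cell, not normalized, 1 table per library. The submitters' processing notes name bcl2fastq 2.19.1.403, UMI-tools 1.0.0, STAR 2.7.3a and featureCounts 1.6.4 (Subread) with mm10, while the study's methods name STARsolo and EmptyDrops, so which selected the barcodes is not settled. That choice sets the smallest cells, which differ in depth between the groups.

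Cells with 500 to 6000 genes and at most 25% UMIs from 27 mitochondrial genes were kept (45328 of 48903), with genes found in at least 3 cells. Libraries were integrated in Seurat 5.3.0 (R 4.3.3) over 30 dimensions on 1933 of 2000 variable genes, without cell-cycle and Notch genes, and clustered with 12 components at resolution 0.12, since the study's 0.1 merged BMSC-like and fibroblast-like cells. Class names were rebuilt from markers and may differ from the study's. A class needed 3 markers found, a marker score of at least 1 and a gap of 0.5 to the next list. Endothelial-like cells were clustered again at 0.3, mural cells at 0.2 and stromal cells at 0.08 and 0.5. Scrublet (scanpy 1.11.5, Python 3.11.15) called 526 doublets (1.16%), with 4, 3 and 0 in 3 Fracture libraries, where it had not worked. Doublets were therefore kept, and leaving out the 6% of cells with the highest scores was an alternative chosen after seeing the data, as were the fits without mixed subclusters and the weighting of subclusters.

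Counts were summed per class and preparation (at least 20 cells in each) and tested with edgeR 4.0.16 (TMM, quasi-likelihood, Benjamini-Hochberg over all genes tested), after a test of the scripts on simulated data. Alternatives were DESeq2 1.42.0, RLE size factors, no filter on low counts, libraries as samples, cells of at least 2000 UMIs, called doublets removed, clusters without integration, a replicate block and each preparation left out. The members and gene lists were chosen with earlier results of these data known. Named were all members, the 3 most similar genes of each (some of which are not reported here), and, of the called pathway genes, at most the 10 of smallest adjusted p per class. Intervals between preparations cover 2 samples per group.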

Additional observations from a re-analysis of the deposited data

Results flagged for a closer look

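The fracture effect on 6 members differed between the 6 classes by the joint class-by-group test, and each was singled out for that reason. The adjusted p was 9.89e-08 for Jag1, which rose in osteoblast-like cells (1.45 ± 0.10, adjusted p = 0.00463) and fell in smooth muscle-like cells (−0.93 ± 0.17, adjusted p = 0.0154). The smooth muscle-like fall was not called without mixed subclusters (−0.62 ± 0.17, adjusted p = 0.0507), and with Control shares of the subclusters the log2 ratio of plain CPM was −0.42. The joint adjusted p was 6.95e-05 for Notch2, 0.000427 for Notch1, 0.00646 for Notch4, 0.0122 for Notch3 and 0.0193 for Dll1. With 61.6% of all genes called by the same test, such a difference was common. Classes where a member was under 5 CPM also entered the test.

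The test of the endothelial-like minus the BMSC-like effect called 3 members. The difference was −1.36 on the log2 scale for Dll1 and 0.63 for Notch2, where a negative value is a lower effect in endothelial-like cells. That of Notch2 turned to a called −0.44, adjusted p = 0.0152, without mixed subclusters and to −0.08 without integration, so its direction depended on which cells were counted. Dll1 was under 3 CPM in BMSC-like cells. The fitted value for Dll4 was −3.02, but Dll4 had 22 UMIs in all and 0 in Control preparation 2 of BMSC-like cells, where it did not pass the filter on low counts. It ran from −7.26 without Control preparation 1 to −2.07 without Fracture preparation 2 and is not a measured difference.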

How the results depend on the processing

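Of the single-gene values over classes, subclasses and the difference between classes, 82 kept their direction and side of the threshold with RLE size factors and none changed. DESeq2 ended 5 calls, cells of at least 2000 UMIs 1, and clusters without integration 4, 1 of them with a turned sign. Leaving out each preparation gave 1 to 20 member calls in classes (15 with all), 3 to 24 in subclasses (17), 3 to 8 by the joint test (6) and 0 to 4 for endothelial-like minus BMSC-like (3), the lowest always without a Fracture preparation. Signs turned in several results, mostly among uncalled values near 0, of which some follow. Notch4 in Vwf and Selp cells, uncalled at 1.21 with all preparations, ran from −0.07 to 2.22 over left-out preparations. Without Control preparation 1, Notch3 in endothelial-like cells was 0.89 and Dll4 in smooth muscle-like cells 1.85, the upper ends of ranges over left-out preparations that reached down to −1.54 and −0.66. Uncalled, Notch3 in endothelial-like cells was 0.17 with called doublets removed, 0.46 without the highest doublet scores and 0.42 without integration. Uncalled, Dll4 in smooth muscle-like cells was 0.02 with called doublets removed, 1.03 without the highest doublet scores, 0.09 by DESeq2, 0.17 with the replicate block and 0.38 without Fracture preparation 1. Notch2 in endothelial-like minus BMSC-like cells was −0.44 without mixed subclusters and −0.08 with clusters without integration. Fracture minus Control in the smooth muscle-like share of Notch3 was 3.09 percentage points, −2.03 without Control preparation 2 and −0.586 without integration. The endothelial-like share of Dll4 was −2.51 and turned to 0.45 without Control preparation 2, and that of Jag2 was −3.40 and turned to 0.356 with all cells as denominator. That of Jag1 was 0.694 and turned to −4.40 without Control preparation 1, −1.26 without the highest doublet scores and −1.09 without integration. For the shares, leaving out preparations gave −2.03 to 8.21 for Notch3, −5.46 to 0.45 for Dll4 and −4.40 to 5.79 for Jag1. Beyond the smaller number of samples where a preparation was left out, the cause was not tested.

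The labels number preparations 1 and 2 in both groups. Deviations of same-numbered preparations correlated by −0.001 to 0.074 over the 6 classes. With 2 preparations per group a weak correlation cannot exclude pairing, so whether the numbers pair them is not settled. With the replicate block, 14 member calls were made in classes, 14 in subclasses, not among them Notch4 and Jag2 in Ramp3 and Ednrb cells, Notch2 in metaphyseal-like and Dll4 in sinusoidal-like cells, which were called without it. Over all genes the block gave (without it in parentheses) 3175 (4838) in endothelial-like, 801 (2116) in Ramp3 and Ednrb, 307 (573) in Vwf and Selp, 672 (2042) in fibroblast-like, 645 (1054) in metaphyseal-like, 1106 (2282) in osteoblast-like, 1049 (1629) in sinusoidal-like and 1784 (2804) in smooth muscle-like cells.

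Counts over all genes that moved by over 1.5 times are given with the main count in parentheses. DESeq2 called 1323 (2116) in Ramp3 and Ednrb, 266 (573) in Vwf and Selp and 601 (1054) in metaphyseal-like cells. Libraries taken as samples, which treats libraries of a preparation as independent, gave 2306 (1285) in arterial-like, 3442 (2116) in Ramp3 and Ednrb, 1064 (573) in Vwf and Selp, 3809 (2042) in fibroblast-like, 1664 (1054) in metaphyseal-like, 4913 (2282) in osteoblast-like and 668 (336) in septoclast-like cells. No filter on low counts gave 2530 (1285) in arterial-like, 3530 (2116) in Ramp3 and Ednrb, 1182 (573) in Vwf and Selp, 3574 (2042) in fibroblast-like, 1861 (1054) in metaphyseal-like, 1535 (890) in pericyte-like, 955 (336) in septoclast-like and 2632 (1629) in sinusoidal-like cells, and mixed subclusters left out gave 1292 (2804) in smooth muscle-like cells. Leaving out 1 preparation gave 0 to 2568 (1285) in arterial-like, 2860 to 9417 (7561) in BMSC-like, 321 to 9007 (6432) in chondrocyte-like, 4214 to 7390 (6883) in dpMSC-like, 0 to 7212 (4838) in endothelial-like, 0 to 3755 (2116) in Ramp3 and Ednrb, 411 to 1315 (573) in Vwf and Selp, 0 to 4678 (2042) in fibroblast-like, 0 to 1817 (1054) in metaphyseal-like, 449 to 4934 (3718) in mpMSC-like, 0 to 4832 (2282) in osteoblast-like, 223 to 1427 (890) in pericyte-like, 112 to 853 (336) in septoclast-like, 104 to 2713 (1629) in sinusoidal-like and 0 to 3981 (2804) in smooth muscle-like cells.
The stromal subclusters also moved slightly between runs that differed only in the settings of the linear algebra library. Notch1 in dpMSC-like cells was called in one such run and not in the one reported, while Notch2 and Notch3 there were called in both.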
